A study of Homo sapiens with 12 samples.

Results

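The genes described here encode factors that act on RNA polymerase II while it travels along a gene. They were chosen by name, from a list of 37 symbols, and all 37 were found among the 57773 genes of the deposited expression table. Of these, 36 had enough counts to be tested together with the 19289 genes that passed the count filter. MLLT3 was not tested: it stayed at or below 0.559 CPM (a gene's counts scaled to library size) in every library. The set holds the 2 largest polymerase subunits, the kinases of the polymerase tail, the pausing factors DSIF and NELF, the PAF complex, SPT6 with IWS1, the histone chaperone FACT, the super elongation complex, TFIIS with elongin, and 5 chromatin factors.

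RNA was sequenced from U87, a human glioblastoma cell line, in a parental form and in a derivative that the labels call JQ1-resistant. How the resistant derivative was selected, and whether it is 1 clone, is not stated in the labels. Both lines received DMSO (the solvent control), JQ1 at 1000 nM or dBET6 at 1000 nM for 24 h, with 2 libraries for each of the 6 groups and 12 libraries in all. Polyadenylated RNA was sequenced. Nothing in the labels says that replicate libraries came from separate cultures, and p-values below therefore speak of library-to-library spread alone, which may be technical.

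A polymerase that has left the promoter commonly stops a short way into the gene, held by DSIF (SUPT4H1 and SUPT5H) and NELF. The kinase P-TEFb, brought in by the super elongation complex, phosphorylates both factors and the polymerase tail, after which NELF leaves, the PAF complex and SPT6 join, and CDK12 or CDK13 with cyclin K keeps the tail phosphorylated through the gene body. FACT moves nucleosomes aside and back, TFIIS restarts stalled polymerases, and SETD2 marks the chromatin behind them. BET proteins read acetylated chromatin and are tied to pause release. JQ1 competes for their bromodomains, whereas dBET6 joins the JQ1 ligand to a ligand of the ubiquitin ligase subunit cereblon, so that BET proteins are degraded.

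Library depth lay between 24732177 and 40388589 estimated counts. All 7 mesenchymal glioma markers looked up had a mean above 1 FPKM, whereas 1 of 4 astrocyte and 2 of 4 neuron markers did. The 4 dBET6 libraries stood apart, with 3.02% to 3.75% of counts in mitochondrially encoded mRNA against 1.40% to 2.59% in the other 8, and 25.4% to 29.9% of counts in the 50 most abundant genes against 11.9% to 17.9%. Values below are scaled by the trimmed mean of M-values (TMM), which sets the typical gene to no change. Scaling to total counts instead moved the median log2 fold change of all genes with dBET6 to -0.66 in parental and -1.14 in resistant cells, and scaling to the 13 mitochondrially encoded mRNAs moved it to -1.78 and -2.12. FPKM summed over all genes was 1711308 to 2298108 in the dBET6 libraries and 649818 to 812174 in the others, and summed FPKM of the mesenchymal markers was 20938 to 29054 and 6977 to 10936. That of 4 oligodendrocyte markers was 9.53 to 19.0 with dBET6 and 0.482 to 1.27 without, with MOBP reaching 12.6, and that of 5 immune markers was 1.064 to 6.62 and 0.0335 to 0.372, with CD14 reaching 6.14 and the other 4 below 1 FPKM in every library. The sums for neuron markers (5.06 to 6.66 with dBET6, 4.61 to 13.7 without) and astrocyte markers (2.67 to 6.69 and 1.897 to 7.42) overlapped. The part of these marker genes in the results was not tested. A rise with dBET6 is a rise relative to other nuclear genes, and in these bulk samples fewer cells and less RNA per cell cannot be told apart.

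The promoters of 5 members whose mRNA moved far are shown first: IWS1, LEO1 and CDK12, which fell with dBET6, and POLR2A and TCEB2 (ELOB in RefSeq), which rose relative to other genes. Each run is the 120 bases before the RefSeq start in GRCh38.p14, written 5′ to 3′ on the gene's strand, and capitals mark matches to the motifs spelled out after them. The windows are chr2:127526490-127526609 (minus strand), chr15:51971779-51971898 (minus), chr17:39461366-39461485 (plus), chr17:7484246-7484365 (plus) and chr16:2777281-2777400 (minus).
IWS1: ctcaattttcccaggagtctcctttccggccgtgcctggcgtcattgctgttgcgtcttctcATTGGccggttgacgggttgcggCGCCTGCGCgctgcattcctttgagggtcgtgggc
LEO1: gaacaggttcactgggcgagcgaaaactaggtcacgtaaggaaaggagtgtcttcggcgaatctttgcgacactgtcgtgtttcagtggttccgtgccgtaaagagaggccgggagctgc
CDK12: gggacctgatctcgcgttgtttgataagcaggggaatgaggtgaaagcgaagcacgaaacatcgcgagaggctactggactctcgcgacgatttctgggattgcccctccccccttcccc
POLR2A: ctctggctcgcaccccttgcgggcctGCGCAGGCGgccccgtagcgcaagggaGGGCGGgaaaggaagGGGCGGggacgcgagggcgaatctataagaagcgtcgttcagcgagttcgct
TCEB2: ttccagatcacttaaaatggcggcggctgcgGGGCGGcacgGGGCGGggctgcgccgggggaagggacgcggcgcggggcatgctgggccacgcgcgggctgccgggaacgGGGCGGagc
The capitals in IWS1 are a CCAAT box and an NRF1 site, both read on the opposite strand. Those in POLR2A are an NRF1 site followed by a pair of GC boxes, and those in TCEB2 are GC boxes. The printed windows of LEO1 and CDK12 hold none of the motifs searched. In the full 250 bases searched, LEO1 has 2 GC boxes further upstream, and CDK12 has none of the motifs.

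The set of RefSeq promoters used here held an entry for 31 of the 37 members. In the 250 bases before the start, on both strands, a GC box (GGGCGG) was found in 25 of the 31, against 42.6% of all 35116 promoters in the table. No member held a TATA box (TATAAA), against 10.7% of all promoters, and 9 held a CCAAT box (CCAAT), against 32.0%. An ETS site (CCGGAAG) was found in 7 (8.52% of all), an NRF1 site (GCGCANGCG) in 6 (6.56%) and an E-box (CACGTG) in 3 (6.34%). GC content had a median of 66.8% in the members and 58.0% in all promoters. For many members, such as POLR2B, CDK13, SUPT5H, CTR9 and NELFA, annotated exons of the same gene cover all 120 bases next to the start. Their motif and GC values therefore include annotated exon sequence, and the same was not checked for all promoters. These matches describe letters only.

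With JQ1 in parental cells, 10 of the 36 members rose and 13 fell, while 23.0% of all genes rose and 26.2% fell. In resistant cells 8 rose and 8 fell, beside 21.2% and 23.2% of all genes. The members' median log2 fold change with JQ1 was -0.06 in parental and -0.04 in resistant cells, close to the 0.00 and 0.01 of all genes. With total counts 5 members rose and 18 fell with JQ1 in resistant cells, and with mitochondrial scaling 1 rose and 21 fell and their median was -0.61, beside -0.56 for all genes. With dBET6 in parental cells, 8 members rose and 22 fell, where 37.0% of all genes rose and 39.4% fell. In resistant cells 10 rose and 23 fell, beside 35.7% and 39.6%. The members' median was -0.57 in parental and -0.67 in resistant cells, against -0.02 and -0.07 for all genes. The 8 and 10 rises depend on the scaling: with total counts 6 of the 8 and 8 of the 10 values were below 0, and with mitochondrial scaling all 18 were. JQ1 and dBET6 are each set against the same 2 DMSO libraries in a line, so their values share those controls. Here rose, fell and passed the test mean an adjusted p under 0.05 from edgeR's quasi-likelihood test with Benjamini-Hochberg adjustment over all genes.

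**Figure D1:**
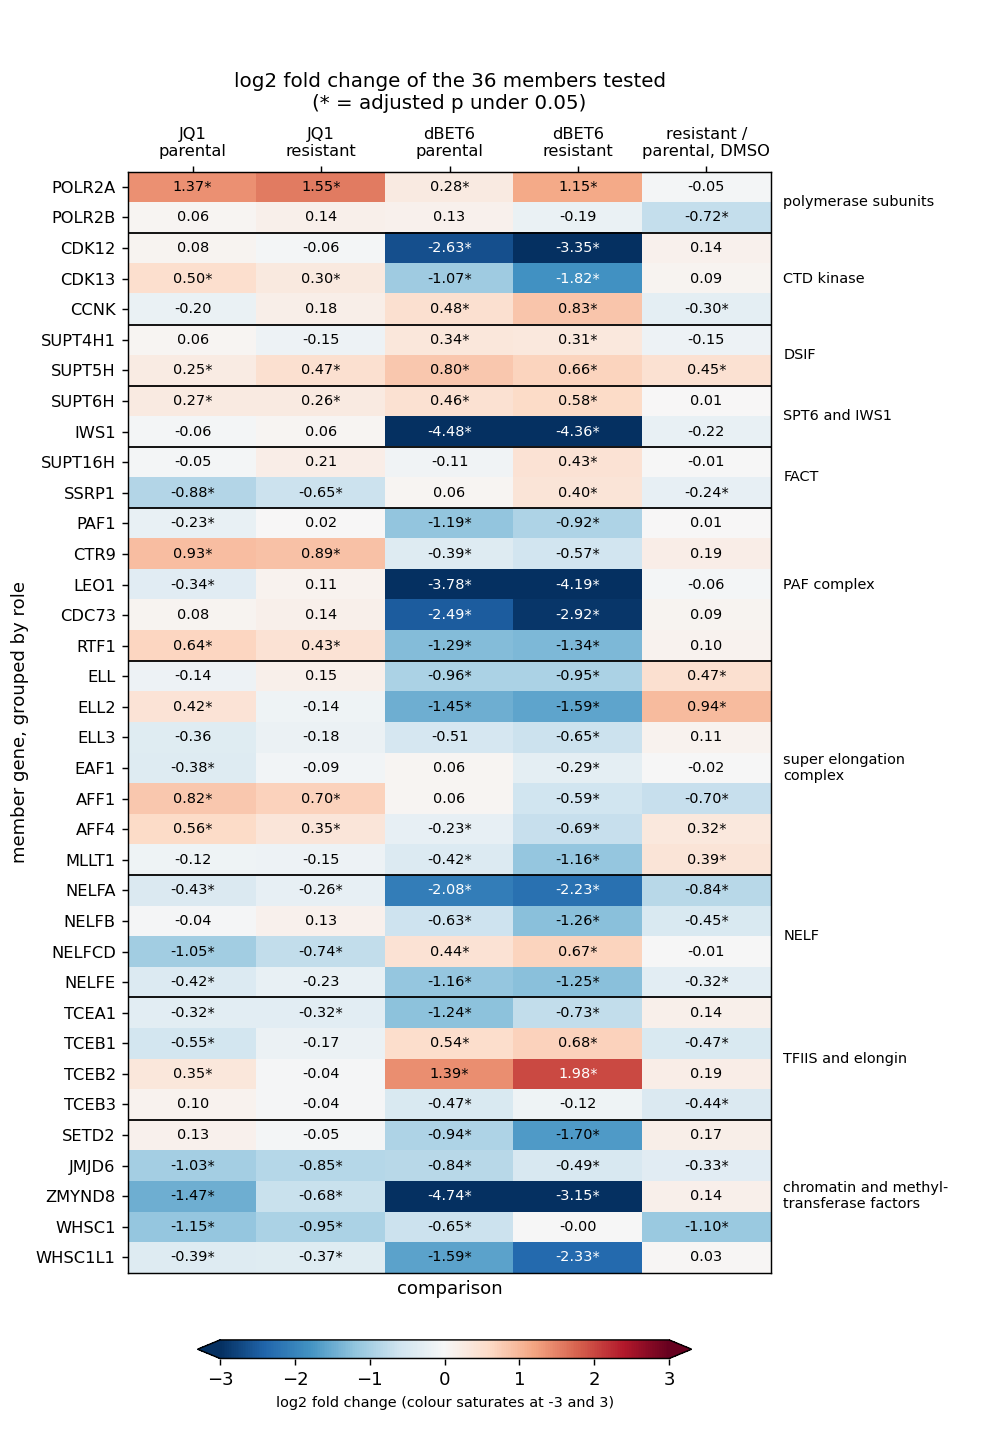
Log2 fold change of the 36 tested members (vertical axis, grouped by role) in 5 comparisons (horizontal axis), with an asterisk where the adjusted p was under 0.05. The dBET6 columns hold the strongest colours, from -4.74 for ZMYND8 in parental cells to 1.98 for TCEB2 in resistant cells; with mitochondrial scaling every positive dBET6 call is below 0.

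Levels between genes can be compared only per length, and the deposited FPKM values serve for that. In parental DMSO cells the elongin subunit TCEB2 was highest at 400.4 ± 7.42 FPKM (SD, n = 2), followed by TCEB1 at 146 ± 23.6 and SSRP1 at 109.7 ± 0.0544. SUPT4H1 at 101 ± 3.13 and SUPT5H at 85.3 ± 1.35 came next. POLR2A stood at rank 13 with 36.6 ± 3.16 FPKM, and its neighbours MLLT1 (35.1 ± 0.595) and PAF1 (36.9 ± 0.681) did not differ from it beyond the spread between libraries. The lowest expressed of the tested members was ELL3 at 2.17 ± 0.228 FPKM, below EAF1 at 6.63 ± 0.375. Both members of the tail kinase pair lay in the lower part of the order, CDK12 at 26.7 ± 0.6 and CDK13 at 8.67 ± 0.132.

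The 2 largest polymerase subunits behaved differently. POLR2A, which carries the catalytic site and the long repeat tail, had 215 and 205 TMM-scaled CPM in the parental DMSO libraries, 562 and 526 with JQ1 and 284 and 226 with dBET6. In resistant cells it had 203 and 202 CPM with DMSO, 595 and 594 with JQ1 and 461 and 435 with dBET6. The JQ1 libraries were the highest in both lines and overlapped no DMSO library. The log2 fold change with JQ1 was 1.37 ± 0.09 (SE, adjusted p = 3.38e-13) in parental and 1.55 ± 0.09 (adjusted p = 3.33e-14) in resistant cells, the highest of any member in each.

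With dBET6 the POLR2A value was 0.28 ± 0.09 (adjusted p = 0.00828) in parental cells, a call lost without the second DMSO library (0.19, adjusted p = 0.146) or without the first dBET6 library (0.06, adjusted p = 0.558), and below 0 with total-count scaling (-0.37) and mitochondrial scaling (-1.50). In resistant cells the value with dBET6 was 1.15 ± 0.09 (adjusted p = 2.26e-12), below 0 with mitochondrial scaling only (-0.92). Most POLR2A counts come from transcript ENST00000322644, which the annotation used lacks and which was assigned through the deposited FPKM. Without that assignment the JQ1 rise no longer passed the test (0.53, adjusted p = 0.509 in parental and 1.47, adjusted p = 0.0596 in resistant cells). POLR2B, the other large subunit, had 112 and 90.9 CPM in parental DMSO and 96.8 and 114 with JQ1. With TMM scaling neither drug moved its total past the test in either line. Its FPKM was higher with dBET6 than with DMSO in both lines, as was FPKM summed over all genes.

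**Figure D2:**
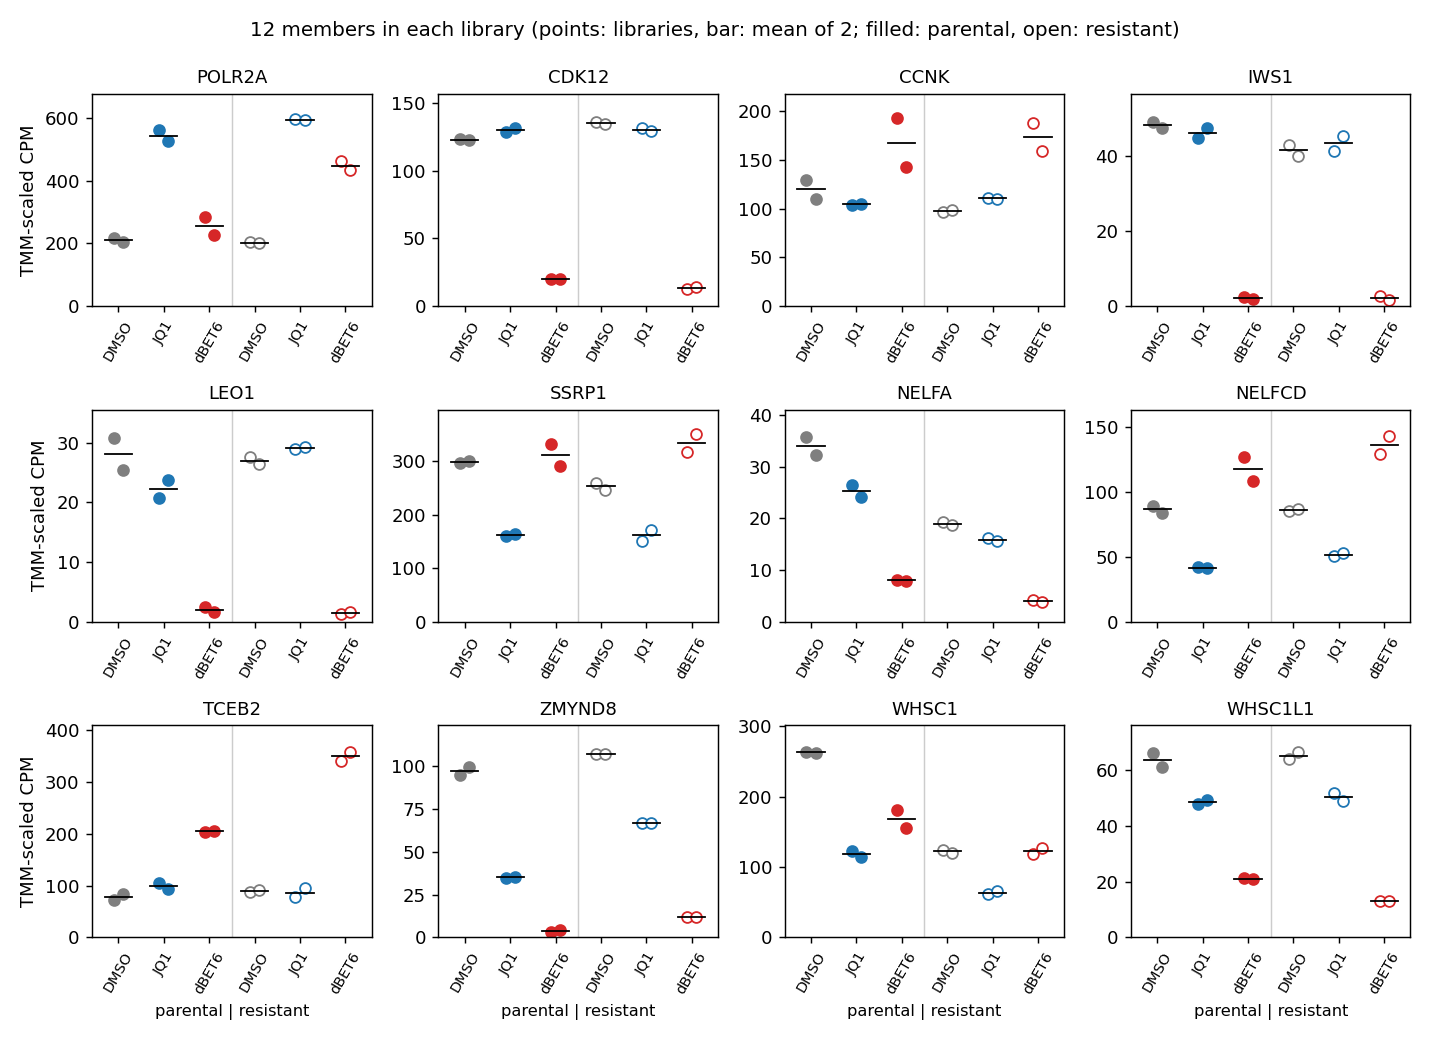
TMM-scaled CPM (vertical axes from 0, separate for each gene) of 12 members in the 6 groups (horizontal axes), with a point for each library and a bar at the mean of 2. CDK12, IWS1, LEO1 and ZMYND8 drop with dBET6 in both lines, POLR2A is highest with JQ1, and TCEB2 reaches 341 and 358 with dBET6 in resistant cells (a rise of 1.98 in log2 that is -0.08 with mitochondrial scaling).

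Among the kinases of the polymerase tail, the 2 catalytic paralogs fell with dBET6, while with TMM scaling their shared partner did not. CDK12 had 124 and 123 CPM in parental DMSO, 129 and 132 with JQ1 and 19.8 and 19.97 with dBET6, and in resistant cells 136 and 135, 132 and 129 and 12.2 and 14.3. The dBET6 libraries lay far below all others, 6.196-fold lower in parental and 10.2-fold lower in resistant cells. With JQ1 CDK12 stayed at a log2 fold change of 0.08 (95% interval -0.08 to 0.25) in parental and -0.06 (-0.22 to 0.11) in resistant cells. CDK13 had 51.6 and 55.2 CPM in parental DMSO and 26.6 and 24.4 with dBET6, a log2 fold change of -1.07 ± 0.09 (adjusted p = 1.13e-11). In resistant cells it went from 56.1 and 57.3 to 17.1 and 15.1 CPM, -1.82 ± 0.10 (adjusted p = 1.65e-16). With JQ1, in contrast to CDK12, CDK13 rose by 0.50 in parental and by 0.30 in resistant cells; the latter was lost without the first DMSO library (0.28, adjusted p = 0.0655) or the first JQ1 library (0.25, adjusted p = 0.0884) and was -0.28 with mitochondrial scaling. CCNK, the cyclin that activates both kinases, had 129.7 and 110.3 CPM in parental DMSO and 193 and 142 with dBET6, and in resistant cells 96.1 and 98.5 and 188 and 159. The call of its log2 fold change of 0.48 in parental cells was lost without the first dBET6 library (0.20). With total counts the CCNK value was -0.17 in parental and -0.24 in resistant cells, and with mitochondrial scaling it was further below 0 in both lines.

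DSIF holds the polymerase at the pause and later travels with it. Both of its subunits rose with dBET6 in both lines relative to other genes. SUPT5H, the large subunit, had 173 and 168 CPM in parental DMSO, 206 and 201 with JQ1 and 324 and 269 with dBET6, and in resistant cells 231 and 235, 318 and 329 and 397 and 342. Its libraries were ordered DMSO, JQ1, dBET6 in both lines without overlap. The log2 fold change was 0.80 ± 0.09 (adjusted p = 4.75e-09) with dBET6 and 0.25 ± 0.09 (adjusted p = 0.022) with JQ1 in parental cells, and 0.66 ± 0.09 (adjusted p = 1.45e-07) and 0.47 ± 0.09 (adjusted p = 8.17e-05) in resistant cells. The JQ1 call in parental cells was lost when any of its 4 libraries was left out (0.23 to 0.27, adjusted p 0.0615 to 0.113). With total counts the dBET6 value in resistant cells was -0.41. With mitochondrial scaling the dBET6 values were -0.98 and -1.40, and the JQ1 values -0.04 and -0.10. SUPT4H1, the small subunit, had log2 fold changes with dBET6 of 0.34 and 0.31, below 0 with total counts (-0.31 and -0.77). The call in resistant cells was lost without the second dBET6 library (0.16, adjusted p = 0.208) or the second DMSO library (0.24, adjusted p = 0.0819).

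NELF, the factor that helps DSIF hold the pause, split by subunit. NELFA, NELFB and NELFE fell with dBET6 in both lines, and NELFCD rose. NELFA had 35.7 and 32.3 CPM in parental DMSO and 8.13 and 7.93 with dBET6, a log2 fold change of -2.08 ± 0.11 (adjusted p = 1.13e-16); in resistant cells it went from 19.2 and 18.7 to 4.23 and 3.85, -2.23 ± 0.13 (adjusted p = 1.01e-15). NELFE, the subunit with an RNA-binding domain, had 32.8 and 34.5 CPM in parental DMSO, 26.3 and 23.9 with JQ1 and 16.6 and 13.4 with dBET6, and in resistant cells 26.4 and 27.4, 21.5 and 24.3 and 11.1 and 11.5. It fell with dBET6 by 1.16 and 1.25 on the log2 scale in the 2 lines, and with JQ1 its value was -0.42 ± 0.10 (adjusted p = 8.81e-04) in parental and -0.23 ± 0.10 (adjusted p = 0.0671) in resistant cells. NELFB fell less in parental (-0.63 ± 0.09) than in resistant cells (-1.26 ± 0.09), a difference that passed the test (-0.63 ± 0.13, adjusted p = 2.82e-04).

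NELFCD moved in opposite directions with the 2 drugs, down with JQ1 and up with dBET6. It had 88.97 and 83.7 CPM in parental DMSO, 41.95 and 41.2 with JQ1 and 127 and 108 with dBET6, and in resistant cells 85.3 and 86.2, 50.3 and 52.5 and 129 and 143. JQ1 libraries were the lowest and dBET6 libraries the highest in both lines, with no overlap. The log2 fold change with JQ1 was -1.05 ± 0.09 (adjusted p = 3.22e-11) and -0.74 ± 0.09 (adjusted p = 4.07e-08), and with dBET6 0.44 ± 0.09 (adjusted p = 4.50e-05) and 0.67 ± 0.09 (adjusted p = 5.73e-08); the dBET6 values were -0.21 and -0.41 with total counts. Its main transcript was also assigned through the deposited FPKM, and without it none of these 4 values passed the test (adjusted p 0.211 to 0.511).

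All 5 genes of the PAF complex, which rides on the elongating polymerase and supports histone modification behind it, fell with dBET6 in both lines. LEO1 had 30.8 and 25.4 CPM in parental DMSO, 20.7 and 23.7 with JQ1 and 2.38 and 1.68 with dBET6, and in resistant cells 27.6 and 26.4, 28.9 and 29.3 and 1.28 and 1.65. The fall was 13.8-fold in parental and 18.3-fold in resistant cells. CDC73, the subunit also known as the tumour suppressor parafibromin, fell from 40.2 and 34.3 to 7.01 and 6.200 CPM in parental cells and from 40.5 and 38.6 to 5.17 and 5.25 in resistant cells. RTF1, PAF1 and CTR9 fell less, with log2 fold changes of -1.29 ± 0.09, -1.19 ± 0.10 and -0.39 ± 0.10 in parental and -1.34 ± 0.09, -0.92 ± 0.10 and -0.57 ± 0.10 in resistant cells.

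With JQ1, 2 genes of the complex rose and 2 fell in parental cells, and 2 rose and 0 fell in resistant cells. Of all genes 23.0% rose and 26.2% fell in parental and 21.2% and 23.2% in resistant cells. CTR9, its large scaffold subunit, rose from 48.7 and 41.3 to 79.6 and 92.2 CPM in parental cells and from 51.7 and 50.9 to 94.1 and 96.03 in resistant cells, log2 fold changes of 0.93 ± 0.09 (adjusted p = 1.18e-09) and 0.89 ± 0.09 (adjusted p = 3.28e-09). CTR9 is overlapped on the other strand by the abundant gene EIF4G2, which stood at 366 and 388 FPKM in parental DMSO and 364 and 348 with JQ1. Whether counting used strand is not given in the sources used here, and the part of EIF4G2 in the CTR9 values was not tested. RTF1 also rose, by 0.64 and 0.43, the latter -0.14 with mitochondrial scaling. In parental cells PAF1 was at -0.23 and LEO1 at -0.34 with JQ1; both passed the test, but PAF1 lost the call without any of 7 of the 12 libraries (-0.26 to -0.20, adjusted p 0.0517 to 0.182) and LEO1 without the first DMSO library (-0.21, adjusted p = 0.194) or the first JQ1 library (-0.25, adjusted p = 0.132). CDC73 was at 0.08 (95% interval -0.12 to 0.28) and 0.14 (-0.06 to 0.35).

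SPT6 (gene SUPT6H) and IWS1 bind each other on the travelling polymerase, and their mRNAs moved apart. IWS1 had 49.04 and 47.5 CPM in parental DMSO, 44.9 and 47.6 with JQ1 and 2.34 and 1.98 with dBET6, and in resistant cells 42.9 and 40.1, 41.5 and 45.3 and 2.62 and 1.47. The fall with dBET6 was 22.3-fold in parental and 20.5-fold in resistant cells, the lowest value of any member in the latter (-4.36 ± 0.16, adjusted p = 7.76e-21). SUPT6H had 238 and 225 CPM in parental DMSO and 345 and 290.3 with dBET6, a log2 fold change of 0.46, and 0.58 in resistant cells; with total counts these were -0.19 and -0.50.

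FACT consists of SUPT16H and SSRP1. SSRP1 fell with JQ1 in both lines while SUPT16H did not pass the test. SSRP1 had 297 and 301 CPM in parental DMSO, 161 and 164 with JQ1 and 332 and 291 with dBET6, and in resistant cells 260.3 and 247, 151 and 172 and 317 and 351. The log2 fold change with JQ1 was -0.88 ± 0.09 (adjusted p = 1.33e-09) and -0.65 ± 0.09 (adjusted p = 4.26e-07). SUPT16H was at -0.05 (95% interval -0.24 to 0.15) and 0.21 (0.02 to 0.40) with JQ1. With dBET6 both FACT genes rose in resistant cells, SSRP1 by 0.40 and SUPT16H by 0.43, values that were -0.68 and -0.65 with total counts. In parental cells neither passed the test with dBET6.

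The super elongation complex carries P-TEFb to paused genes. Its scaffolds AFF1 and AFF4 rose with JQ1 in both lines. AFF1 had 42.9 and 42.5 CPM in parental DMSO, 74.2 and 76.4 with JQ1 and 44.2 and 44.8 with dBET6, and in resistant cells 26.1 and 26.6, 44.95 and 40.5 and 18.1 and 16.8. The JQ1 rise was 0.82 ± 0.09 (adjusted p = 2.97e-09) and 0.70 ± 0.09 (adjusted p = 1.14e-07). AFF4 rose by 0.56 in parental and by 0.35 in resistant cells, the latter -0.23 with mitochondrial scaling. With dBET6, 4 of the 7 tested genes of the complex fell in parental cells and all 7 in resistant cells, beside 39.4% and 39.6% of all genes. EAF1, 1 of those 7 (-0.29), lost its call without the second dBET6 library (-0.21, adjusted p = 0.153) or the first DMSO library (-0.23, adjusted p = 0.13) in resistant cells and over coding transcripts alone (-0.23, adjusted p = 0.0681). Over coding transcripts alone AFF4 in parental cells (-0.16, adjusted p = 0.0873) and ELL3 in resistant cells (-0.52, adjusted p = 0.198) lost their calls too. Over all transcripts AFF4 was at -0.23 and -0.69 with dBET6, and MLLT1, the reader subunit also called ENL, at -0.42 and -1.16. AFF1 was at 0.06 (95% interval -0.12 to 0.24) and -0.59.

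The 3 ELL paralogs, which raise the speed of the polymerase, differed in level. In CPM per parental DMSO library ELL had 29.7 and 31.2, ELL2 69.7 and 70.6 and ELL3 1.998 and 2.65. ELL2 fell with dBET6 to 24.2 and 26.99 in parental cells (-1.45 ± 0.09, adjusted p = 7.32e-15) and from 140.3 and 129 to 43.4 and 45.97 in resistant cells (-1.59 ± 0.09, adjusted p = 3.61e-16). ELL fell by 0.96 and 0.95 on the log2 scale. Exons of ELL3 overlap exons of the abundant genes SERF2 and PDIA3 on the other strand. The dBET6 value of ELL3 was -0.51 (95% interval -1.01 to -0.01) in parental cells and -0.65 in resistant cells, where it passed the test. That call was lost without either dBET6 library or the second DMSO library (-0.74 to -0.64), and over coding transcripts alone (-0.52). MLLT3, a paralog of MLLT1, was at 0 to 0.559 CPM throughout, below the count filter, while MLLT1 was expressed.

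TFIIS (TCEA1) fell with both drugs, whereas 2 elongin subunits rose with dBET6. TCEA1 had 102 and 101 CPM in parental DMSO, 76.3 and 86.00 with JQ1 and 41.9 and 44.1 with dBET6, with log2 fold changes of -0.32 ± 0.08 and -1.24 ± 0.09. In resistant cells these were -0.32 ± 0.08 and -0.73 ± 0.09. The JQ1 call was lost without the first JQ1 library in parental cells (-0.24, adjusted p = 0.074) and without the first DMSO library in resistant cells (-0.28, adjusted p = 0.0563). TCEB2, a subunit that elongin shares with ubiquitin ligases, had 71.8 and 83.9 CPM in parental DMSO and 204 and 205 with dBET6, and in resistant cells 86.7 and 90.95 and 341 and 358. It rose by 1.39 ± 0.10 (adjusted p = 1.04e-13) in parental and by 1.98 ± 0.10 (adjusted p = 2.65e-17) in resistant cells, the largest rise of any member with dBET6; with mitochondrial scaling the values were -0.38 and -0.08. Its JQ1 value in parental cells (0.35) passed the test but was -0.18 in a fit of the deposited FPKM, and the call was lost without the first DMSO library (0.23, adjusted p = 0.107) or the first JQ1 library (0.27, adjusted p = 0.0678). TCEB2 is overlapped on the other strand by SRRM2, which stood at 66.8 and 70.7 FPKM in parental DMSO and 114 and 116 with dBET6. In resistant cells SRRM2 stood at 94.3 and 91.3 FPKM with DMSO and 118 and 107 with dBET6. FPKM summed over all genes was higher with dBET6 in both lines too. The part of SRRM2 in the TCEB2 values was not tested. TCEB1 rose with dBET6 by 0.54 and 0.68 (-0.11 and -0.39 with total counts), and 32 pseudogenes carry its name, so reads may be split between copies. TCEB3, which encodes elongin A, fell in parental cells at -0.47 and stood at -0.12 (95% interval -0.30 to 0.06) in resistant cells.

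Of the 5 chromatin factors, 4 fell with JQ1 in each line, beside 26.2% of all genes in parental and 23.2% in resistant cells. With dBET6 5 fell in parental and 4 in resistant cells, beside 39.4% and 39.6%. ZMYND8, a reader of acetylated and methylated histones, had 94.9 and 99.4 CPM in parental DMSO, 34.8 and 35.3 with JQ1 and 2.802 and 4.52 with dBET6, and in resistant cells 107 and 107, 66.9 and 67.1 and 12.02 and 12.1. Every treated library lay below every DMSO library. The fall with dBET6 was 26.7-fold in parental and 8.898-fold in resistant cells, and that with JQ1 2.77-fold and 1.602-fold.

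With TMM scaling the methyltransferase paralogs WHSC1 and WHSC1L1, also known as NSD2 and NSD3, were ordered differently by the 2 drugs. WHSC1 had 264 and 263 CPM in parental DMSO, 123 and 114 with JQ1 and 180.5 and 156 with dBET6, and in resistant cells 124 and 121, 61.7 and 65.4 and 118 and 127. It was lowest with JQ1 in both lines (-1.15 ± 0.09, adjusted p = 2.61e-12 and -0.95 ± 0.09, adjusted p = 2.86e-10). With mitochondrial scaling, however, WHSC1 was lower with dBET6 than with JQ1 in both lines. With dBET6 it fell by 0.65 on the log2 scale in parental cells and stood at -0.00 (95% interval -0.18 to 0.18) in resistant cells. WHSC1L1 was lowest with dBET6, from 66.2 and 61.04 to 21.1 and 21.04 CPM in parental cells and from 63.8 and 66.4 to 12.8 and 13.1 in resistant cells.

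JMJD6, an oxygenase that has been tied to pause release, fell with both drugs in both lines. It had 43.7 and 44.04 CPM in parental DMSO, 21.8 and 21.3 with JQ1 and 24.1 and 24.7 with dBET6, and in resistant cells 34.7 and 34.9, 19.8 and 18.7 and 24.6 and 25.1. No treated library reached a DMSO library of its line. The log2 fold changes were -1.03 and -0.85 with JQ1 and -0.84 and -0.49 with dBET6. SETD2, the methyltransferase that travels with the polymerase, had 57.4 and 50.8 CPM in parental DMSO, 58.2 and 60.1 with JQ1 and 28.02 and 28.5 with dBET6, and in resistant cells 61.7 and 60.4, 61.4 and 56.5 and 19.8 and 17.9. It fell with dBET6 (-0.94 ± 0.09, adjusted p = 2.30e-10 and -1.70 ± 0.10, adjusted p = 7.94e-16), and its JQ1 values were 0.13 (95% interval -0.05 to 0.31) and -0.05 (-0.23 to 0.13).

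The 2 compounds were given at the same dose and time, so dBET6 was also tested directly against JQ1. Of the 36 members, 9 stood higher under dBET6 and 22 lower in the parental line, where 36.3% of all genes were higher and 38.4% lower. In resistant cells 10 were higher and 22 lower, beside 35.4% and 38.9%. The members' median difference was -0.75 in parental and -0.97 in resistant cells, against 0.00 and -0.03 for all genes. Lowest in dBET6 relative to JQ1 were IWS1 (-4.41 in parental, -4.42 in resistant cells), LEO1 (-3.44 and -4.30) and, in parental cells, ZMYND8 (-3.27, beside -2.47 in resistant cells) and in resistant cells CDK12 (-3.30, beside -2.71 in parental cells), with CDC73 (-3.07) next in resistant cells. Highest in parental cells were NELFCD (1.49), TCEB1 (1.09) and TCEB2 (1.04), and in resistant cells TCEB2 (2.02), NELFCD (1.40) and SSRP1 (1.05). With mitochondrial scaling NELFCD in resistant cells was -0.08, SSRP1 -0.53 and -0.44, and TCEB1 -0.39 and -0.62, while TCEB2 in parental cells was -0.41.

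POLR2A was lower with dBET6 than with JQ1, at -1.09 in parental and -0.41 in resistant cells on the log2 scale, while without the transcript assigned through FPKM these values were 0.98 and 0.36. SUPT5H was higher in parental cells (0.54 ± 0.09, adjusted p = 4.63e-06) and not called in resistant cells (0.19, 95% interval 0.00 to 0.38). NELFE was lower in both lines (-0.74 and -1.02), as was SETD2 (-1.07 and -1.65). In parental cells 5 members did not pass the test between the compounds. Their differences and 95% intervals were 0.08 (-0.14 to 0.29) for POLR2B, 0.18 (0.00 to 0.36) for SUPT6H, -0.07 (-0.26 to 0.13) for SUPT16H, -0.15 (-0.66 to 0.37) for ELL3 and 0.18 (-0.01 to 0.38) for JMJD6. JMJD6 in resistant cells was higher with dBET6 by 0.37, a value that was -0.52 with total counts, -1.11 with mitochondrial scaling and -0.19 in the FPKM fit.

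Without drug, 5 members were higher and 11 lower in resistant than in parental cells, where 17.6% of all genes were higher and 21.5% lower, and the members' median was 0.00. The 3 lowest were WHSC1 at -1.10 ± 0.09 (adjusted p = 1.11e-11), NELFA at -0.84 ± 0.10 (adjusted p = 2.30e-08) and POLR2B at -0.72 ± 0.10 (adjusted p = 3.64e-06), and the 3 highest ELL2 at 0.94 ± 0.09 (adjusted p = 2.31e-10), ELL at 0.47 ± 0.09 (adjusted p = 1.59e-04) and SUPT5H at 0.45 ± 0.09 (adjusted p = 2.04e-04). WHSC1 stood at 264 and 263 CPM in parental and 124 and 121 in resistant DMSO libraries, and ELL2 at 69.7 and 70.6 and 140.3 and 129. Of the members followed in every comparison, POLR2A (-0.05, 95% interval -0.24 to 0.14), CDK12 (0.14, -0.02 to 0.30) and SETD2 (0.17, -0.01 to 0.36) did not pass the test. JMJD6 was lower (-0.33 ± 0.09, adjusted p = 0.00273), and NELFE was lower at -0.32, a call lost without the second parental DMSO library (-0.29, adjusted p = 0.068) or the first resistant DMSO library (-0.30, adjusted p = 0.0981).

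The members on chromosomes 4, 19 and 5 differed mostly in 1 direction per chromosome between the lines (positions from GENCODE 29; these chromosomes were singled out after their values were seen). All 4 members on chromosome 4 were lower in resistant cells, namely WHSC1, NELFA, POLR2B and AFF1 (-0.70), and they are the 4 lowest values of the set. Of the 668 tested genes on chromosome 4, 61.5% were lower and 2.84% higher, with a median log2 difference of -0.69. On chromosome 19 the members SUPT5H, ELL and MLLT1 (0.39) were higher and PAF1 was at 0.01, where 35.0% of 1333 genes were higher, 8.78% lower and the median was 0.33. Both members on chromosome 5, ELL2 and AFF4 (0.32), were higher, beside 27.8% of 892 genes, though AFF4 lost its call without the second parental (0.27, adjusted p = 0.0553) or the first resistant library (0.29, adjusted p = 0.0568). The other 7 members that were lower lie on other chromosomes, where members did not move as 1 group. Of the 5 members on chromosome 17 JMJD6 alone was called. On chromosome 14 CCNK was lower (-0.30) and SUPT16H stood at -0.01, and on chromosome 11 SSRP1 was lower (-0.24) and CTR9 stood at 0.19. The CCNK call was lost without any of 7 of the 12 libraries (-0.32 to -0.19) and over coding transcripts alone (-0.33, adjusted p = 0.0582). SSRP1 lost its call without any of 4 libraries (-0.28 to -0.20). The cause of these differences was not tested. WHSC1 and NELFA are neighbours near the end of the short arm of chromosome 4. POLR2B is overlapped on the other strand by IGFBP7, which stood at 30.9 and 32.0 FPKM in parental and 0.129 and 0.248 FPKM in resistant DMSO libraries. In the same FPKM units POLR2B stood at 36.7 and 29.3 in parental and 21.1 and 19.99 in resistant DMSO libraries. With dBET6 in parental cells IGFBP7 stood at 116 and 115 FPKM and POLR2B at 75.01 and 77.5. FPKM summed over all genes was higher with dBET6 too. The part of reads from IGFBP7 in the POLR2B values was not tested.

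The difference of the 2 lines' responses was tested as an interaction. For JQ1, 1 member differed upward and 1 downward, where 3.81% and 3.03% of all genes did. ZMYND8 fell less with JQ1 in resistant cells, by a difference of 0.79 ± 0.13 (adjusted p = 2.33e-04). With mitochondrial scaling and in the FPKM fits 0 members differed in either direction for JQ1. ELL2 was at 0.42 with JQ1 in parental and -0.14 in resistant cells, a difference of -0.56 ± 0.12 (adjusted p = 0.00312) that was lost without the first resistant DMSO library (-0.49, adjusted p = 0.0501). Among the members followed throughout, the JQ1 differences were 0.18 for POLR2A, 0.22 for SUPT5H, -0.14 for CDK12, 0.19 for NELFE, -0.18 for SETD2 and 0.17 for JMJD6, and none passed the test.

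For dBET6, 9 members differed upward and 8 downward, beside 13.9% and 14.6% of all genes. With total counts the counts were 2 and 21, beside 5.003% and 34.1%, and in the FPKM fit 5 and 3. With mitochondrial scaling 1 member differed upward. ZMYND8 had the largest difference upward (1.58 ± 0.18, adjusted p = 8.64e-08), followed by POLR2A (0.87 ± 0.13, adjusted p = 8.80e-06) and WHSC1 (0.65 ± 0.12, adjusted p = 1.60e-04). Most POLR2A counts come from the transcript assigned through the deposited FPKM, so its difference rests mainly on that transcript. SETD2 (-0.76 ± 0.14, adjusted p = 8.06e-05), CDK13 (-0.75 ± 0.14, adjusted p = 9.19e-05) and MLLT1 (-0.74 ± 0.15, adjusted p = 3.15e-04) had the largest downward, with WHSC1L1 (-0.73) and CDK12 (-0.72) next. ZMYND8 kept 12.02 and 12.1 CPM with dBET6 in resistant cells against 2.802 and 4.52 in parental cells, whereas CDK12 kept 12.2 and 14.3 against 19.8 and 19.97. JMJD6 (0.36) lost its call without any of 9 of the 12 libraries (0.35 to 0.38, adjusted p 0.0502 to 0.114), and SSRP1 (0.34) and TCEB3 (0.35) lost theirs without 6 and 5 of them (0.25 to 0.38, adjusted p 0.0663 to 0.176 and 0.28 to 0.38, adjusted p 0.0738 to 0.144). With total counts these 3 differences were -0.07, -0.09 and -0.08. SUPT5H (-0.13, 95% interval -0.40 to 0.13) and NELFE (-0.09, -0.42 to 0.24) did not pass the test.

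**Figure D3:**
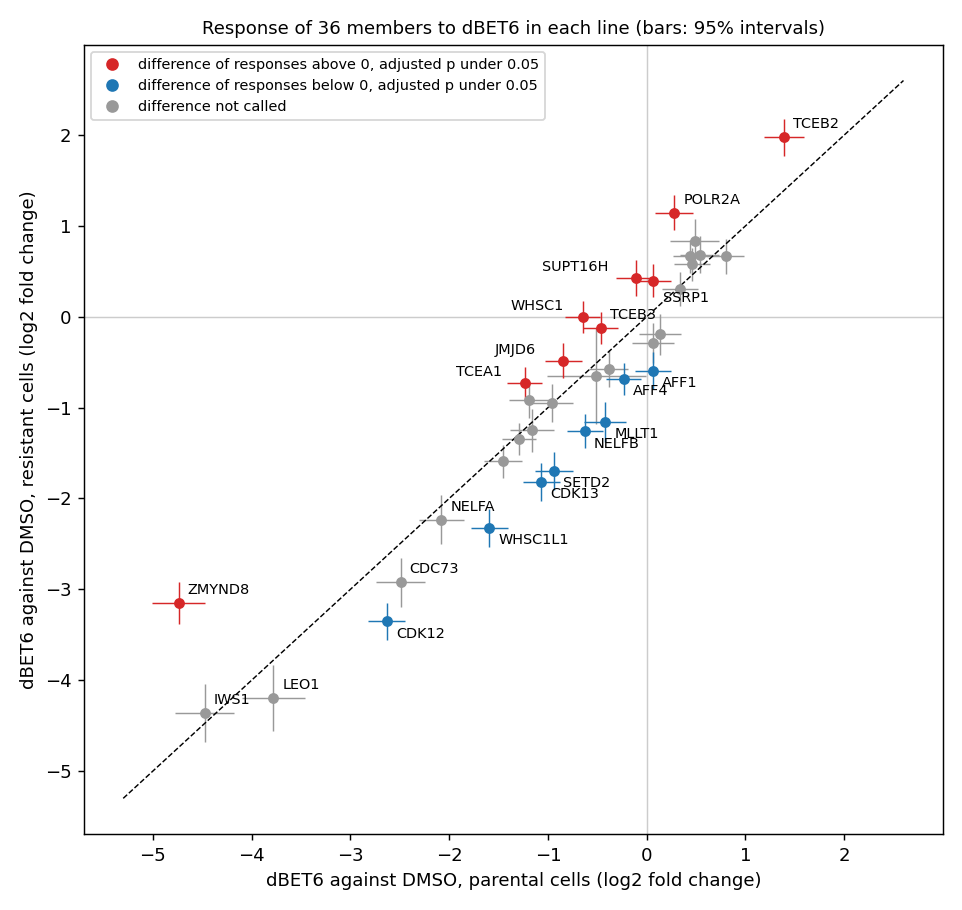
Log2 fold change with dBET6 in parental (horizontal axis) and resistant cells (vertical axis) for the 36 members, with 95% intervals as bars and the line of equal response dashed. The 9 red members, ZMYND8 furthest from the line, lie above it and the 8 blue ones below it. Of the red ones 3, SSRP1, TCEB3 and JMJD6, have differences below 0 with total-count scaling. With that scaling 2 members are called upward and 21 downward, and with mitochondrial scaling 1 is called upward.

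Each gene value above sums transcripts, and the mix of transcripts shifted with dBET6. The share of a gene's counts in transcripts not annotated as protein coding (retained introns, decay targets and processed transcripts) had a median over members of 1.23% in parental DMSO, 1.61% with JQ1 and 3.46% with dBET6. In resistant cells it was 1.503%, 1.36% and 2.68%. Over all protein-coding genes tested it was 2.94%, 3.30% and 4.77% in parental and 3.32%, 3.88% and 4.87% in resistant cells, so the members started lower. The share was higher in both dBET6 libraries than in both DMSO libraries for 16 of 36 members in parental cells, beside 30.2% of all genes, and for 18 in resistant cells, beside 29.2%. It was lower in 4 and 7, beside 15.7% and 18.9%.

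In NELFA the share was 3.88% and 7.86% in the parental DMSO libraries and 41.1% and 43.5% with dBET6, and in resistant cells 5.43% and 3.75% and 62.7% and 47.4%. Over coding transcripts alone the NELFA fall with dBET6 was -2.72 (adjusted p = 1.13e-13) and -3.26 (adjusted p = 1.82e-13), beside -2.08 and -2.23 over all transcripts. In SUPT5H the share was 6.34% and 6.23% in parental DMSO, 12.4% and 8.65% with JQ1 and 30.6% and 34.7% with dBET6. Over coding transcripts alone the SUPT5H rise with dBET6 in parental cells was 0.40 (adjusted p = 7.14e-04) in place of 0.80, and the JQ1 value (0.20, adjusted p = 0.0821) no longer passed the test. In WHSC1 the share was 8.66% and 13% in resistant DMSO and 26.6% and 36.3% with dBET6, and over coding transcripts alone WHSC1 fell in resistant cells (-0.31, adjusted p = 0.00441).

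**Figure D4:**
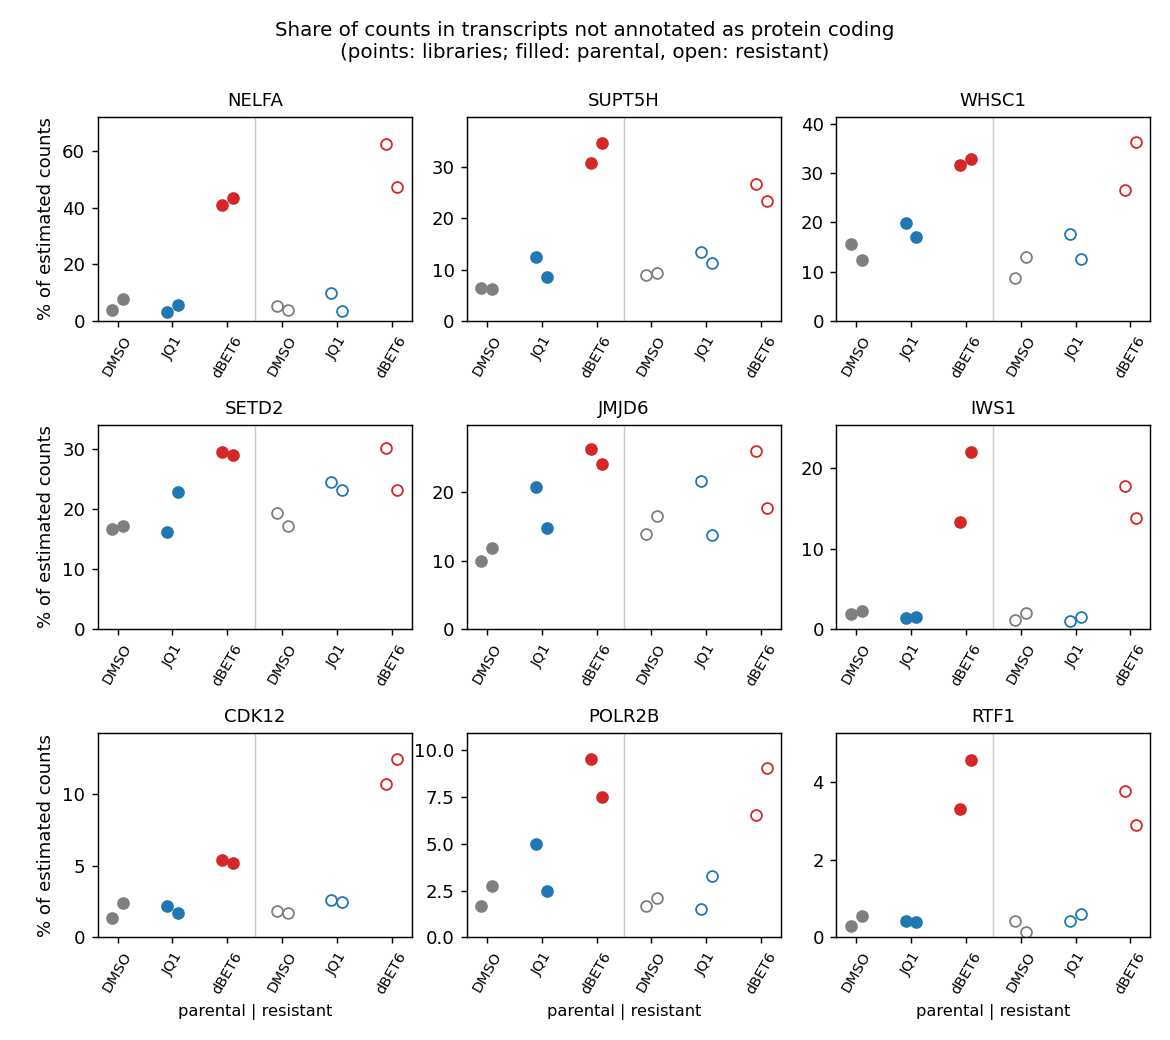
Share of a gene's estimated counts in transcripts not annotated as protein coding (vertical axes from 0, percent) for 9 members in the 6 groups (horizontal axes), with a point for each library. In NELFA the dBET6 libraries lie between 41.1% and 62.7% and all others at or below 9.7%.

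POLR2B shows the shift although its TMM-scaled total did not pass the test. IGFBP7 overlaps POLR2B on the other strand and went from 30.9 and 32.0 to 116 and 115 FPKM with dBET6 in parental cells. The part of IGFBP7 was not tested. The FPKM of POLR2B went from 36.7 and 29.3 to 75.01 and 77.5 with dBET6 in parental cells. In resistant cells POLR2B went from 21.1 and 19.99 to 39.4 and 37.6 FPKM. FPKM summed over all genes rose as well, from 671000 and 685757 to 1738015 and 1711308 in parental cells. In resistant cells that sum went from 649818 and 664753 to 2293908 and 2298108. The FPKM rises given here include this change of scale and do not show a rise of POLR2B relative to other genes. Its 2 full-length coding transcripts, ENST00000381227 (4108 bases) and ENST00000314595 (3748 bases), held 47.1% and 52.6% and 43.4% and 38.2% of its TPM in the parental DMSO libraries. With dBET6 they held 14.4% and 15.98% and 12.8% and 10.7%. In their place a 446-base retained-intron transcript, ENST00000484821, went from 3.98% and 1.14% to 41.5% and 28.8%. A coding transcript of 539 bases, ENST00000433463, went from 0.912% and 0% to 17.9% and 27.9%. In resistant cells the retained-intron transcript went from 2.75% and 6.07% to 25.8% and 43.3%. TPM is per length, so short transcripts weigh more in these shares than in counts. In RTF1 the 485-base processed transcript ENST00000462276 went from 0% and 9.63% to 36.7% and 43.97% of TPM in parental cells, and in JMJD6 the leading transcript ENST00000397625 went from 84.7% and 79.7% to 29.1% and 29.3%.

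Among members, those in longer genes were lower with dBET6. Spearman's rho between gene span and the dBET6 response across the 36 members was -0.46 in parental and -0.54 in resistant cells, as a description with genes that share libraries. Across all genes with a span it was -0.24 and -0.21 (n = 19152). ZMYND8 spans 147676 bases, CDC73 133016, CDK12 103397 and IWS1 90680, and TCEB2 5884. AFF1, the longest tested member at 206053 bases, stood at 0.06 in parental cells, while LEO1, with 33782 bases, had one of the 3 lowest values. With JQ1 the members ran the other way, 0.22 in parental and 0.18 in resistant cells, where all genes gave -0.10 and -0.09. Between transcript length and the JQ1 response rho was 0.43 and 0.53 across members and -0.05 and -0.06 across all genes, with AFF1 (9390 bases), AFF4 (9552) and POLR2A (6749) among the long transcripts that rose.

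**Figure D5:**
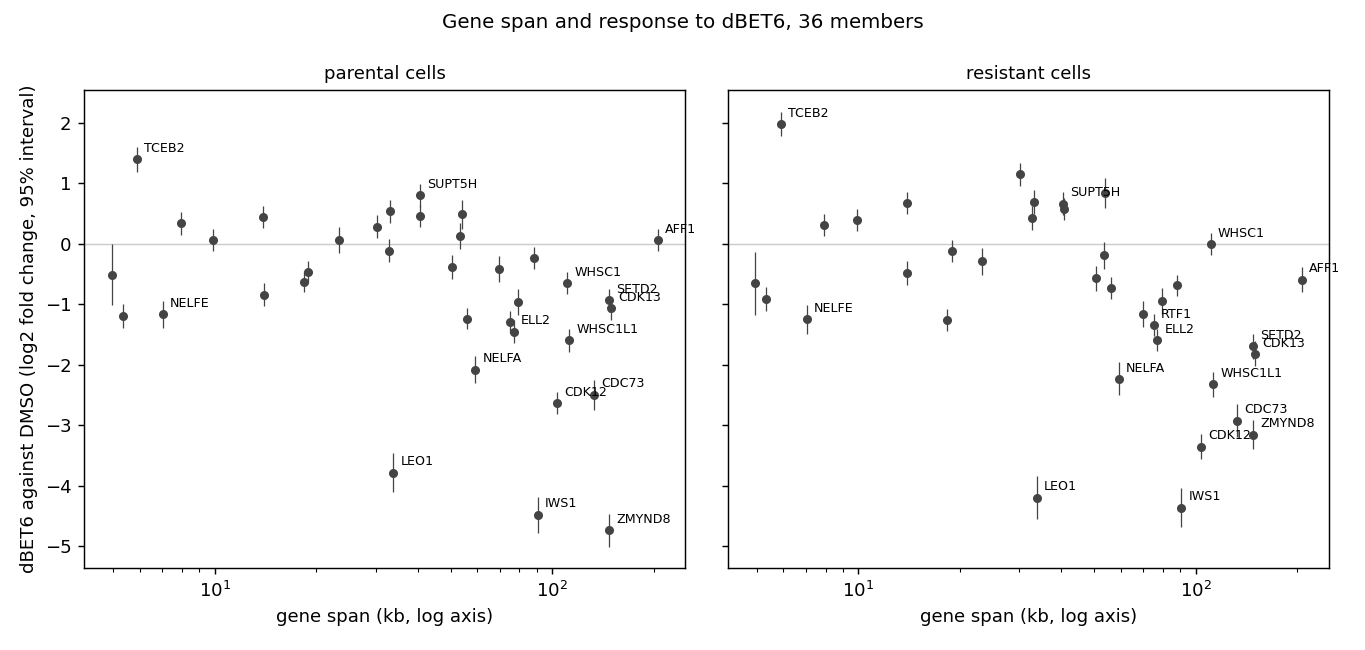
Gene span in kilobases (horizontal axis, log scale) and log2 fold change with dBET6 (vertical axis, 95% intervals as bars) for the 36 members in parental (left) and resistant cells (right). Members over 100 kb lie at or below 0.06, and LEO1 at 33.8 kb lies far below its neighbours in span.

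Other genes of the same machinery, from lists of genes outside the set, gave the surroundings. In the same comparisons 23.0% of all genes rose and 26.2% fell with JQ1 in parental cells, 21.2% and 23.2% in resistant cells, and with dBET6 37.0% rose and 39.4% fell in the parental line and 35.7% and 39.6% in the resistant line. Of 10 genes of P-TEFb, its 7SK inhibitor and the BET family, 5 rose and 0 fell with JQ1 in parental cells, and 2 rose and 6 fell with dBET6. In resistant cells 4 rose and 1 fell with JQ1, and 2 rose and 8 fell with dBET6. With total counts 4 rose and 1 fell with JQ1 in parental cells, and 3 rose and 2 fell in resistant cells. With mitochondrial scaling 2 rose and 1 fell with JQ1 in parental cells, and 2 rose and 3 fell in resistant cells. With dBET6 the BET gene BRD2 was at 1.13 and 0.85 (0.49 and -0.22 with total counts, -0.64 and -1.20 with mitochondrial scaling) and BRD3 at -1.92 and -2.46. MEPCE, which caps the 7SK RNA, fell to log2 fold changes of -1.71 and -2.96. CDK9, the kinase of P-TEFb, rose by 0.41 and 0.41, values that were -0.24 and -0.66 with total counts. With total counts 1 of the 10 rose and 9 fell with dBET6 in parental cells, and 0 rose and 10 fell in resistant cells. Of the 10 smaller polymerase subunits, 5 rose and 3 fell with dBET6 in parental cells and 5 rose and 5 fell in resistant cells. POLR2L was at 1.59 and 2.38 and POLR2E at 1.53 and 2.33, while POLR2D was at -1.42 and -1.69 and POLR2C at -1.24 and -1.09. With total counts 2 rose in each line and 7 and 5 fell, and with mitochondrial scaling 0 rose and 8 fell in each.

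Of 12 further elongation factors, 3 rose and 7 fell with dBET6 in each line, and with JQ1 0 rose and 5 fell in parental and 1 rose and 7 fell in resistant cells. The histone methyltransferase NSD1, a paralog of WHSC1, stood at -3.77 and -3.78 with dBET6. Of 12 other kinases and phosphatases of the polymerase tail, 10 fell and 0 rose with dBET6 in parental cells and 11 fell and 1 rose in resistant cells. The tail phosphatase CTDSPL was at -3.63 and -4.12, and SSU72, which rose in resistant cells, was at 0.58 and at -0.50 with total counts. With total counts all 12 fell in both lines, and the 12 further elongation factors gave 2 rises and 8 falls in parental and 0 and 10 in resistant cells. With JQ1 2 of the 12 tail kinases and phosphatases rose and 4 fell in parental cells, and 3 rose and 4 fell in resistant cells. With mitochondrial scaling 0 of these rose in either line, and 5 fell in parental and 7 in resistant cells. Between the lines in DMSO, the P-TEFb list had 4 genes higher and 2 lower in resistant cells and the smaller subunits 0 and 4. The further elongation factors had 2 and 0 and the tail enzymes 1 and 2. Of all genes 17.6% were higher and 21.5% lower. With mitochondrial scaling 0 genes were higher in any of these lists, and 2, 3, 0 and 1 were lower in the order given.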

How the data were processed

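RNA-seq of 12 U87 libraries, 2 in each of 6 groups, was analysed from the deposited tables. The estimated counts and TPM of 196354 transcripts per library are kallisto output, per the file headers. The authors deposited FPKM for 57773 genes, and kallisto, DESeq2 and hg19 are named, per the submitters' processing notes; their versions and the library strand: not given in the sources used here. How estimated counts of reads shared between transcripts are divided depends on the transcript list, which can shift counts between overlapping genes, paralogs and pseudogenes.

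Transcript counts were summed per gene with GENCODE 29 and rounded. The deposited FPKM of a gene equals the summed TPM of its transcripts divided by a factor per library, so 1259 transcripts without a pair in GENCODE 29 were assigned to the gene whose missing part they equalled within 0.1% in all 12 libraries. This restored the main transcripts of POLR2A, NELFCD and ELL2. Of the 37 members, 36 were then rebuilt within 1% of the deposited FPKM, and EAF1 at a ratio of 0.907. No row without a gene name entered a test.

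edgeR 4.0.16 in R 4.3.3 (TMM scaling, filterByExpr, robust glmQLFit, glmQLFTest) was fitted to all 12 libraries and 19289 genes with 6 group terms and 9 contrasts, with Benjamini-Hochberg adjustment in each contrast and a threshold of 0.05. Intervals are 95%. The scripts were tested on simulated data. DESeq2 1.42.0 and limma 3.58.1 on log2(FPKM + 1) and log2(FPKM + 0.1) were alternatives, with other scalings, no count filter, a replicate block and each library left out. Pairing by GENCODE 29 alone and coding transcripts alone were added after seeing the data. No test was made over the list.

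The members, the pathway lists and the markers were chosen with earlier results of these data known. Members named in each comparison are the 3 lowest and 3 highest called ones plus POLR2A, SUPT5H, CDK12, NELFE, SETD2 and JMJD6, with paralogs and complex partners set beside each other; pathway genes are up to 2 with the smallest p in each direction. MLLT3 was not tested because its counts were below the filter. Promoters are RefSeq's, build GRCh38.p14, matched by symbol. Pearson's r of log2 CPM between replicate libraries was 0.982 to 0.994.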

Additional observations from a re-analysis of the deposited data

Results flagged for a closer look

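The 2 lines responded differently to JQ1 for 2 of the 36 members and to dBET6 for 17, by edgeR's test of the difference (resistant minus parental response, log2, adjusted p under 0.05). Of all genes 6.84% differed for JQ1 and 28.5% for dBET6. With JQ1 the difference was 0.79 for ZMYND8 and -0.56 for ELL2. Neither call held with mitochondrial scaling or in the FPKM fits.

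With dBET6 the resistant cells lay higher for ZMYND8 by 1.58 and for POLR2A by 0.87. The POLR2A value rests mainly on the transcript assigned through the deposited FPKM. WHSC1 differed by 0.65 and TCEB2 by 0.58. SUPT16H, the larger FACT gene, differed by 0.54, from -0.11 in parental to 0.43 in resistant cells. TCEA1, which encodes TFIIS, differed by 0.50, from -1.24 to -0.73, so that it fell in both lines. The differences of JMJD6 (0.36), TCEB3 (0.35) and SSRP1 (0.34) were the smallest, and their sign turned with total-count scaling. Most of the other upward calls also depend on the scaling. With total counts 2 members were called higher and 21 lower, and with mitochondrial scaling 1 was called higher.

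The resistant cells lay lower for SETD2 by a difference of -0.76, for CDK13 by -0.75, for MLLT1 by -0.74, for WHSC1L1 by -0.73 and for CDK12 by -0.72. AFF1 differed by -0.65, from 0.06 in parental to -0.59 in resistant cells. NELFB differed by -0.63 and AFF4 by -0.45. All-gene medians of this difference were -0.05 with TMM scaling, -0.48 with total counts and -0.34 with mitochondrial scaling.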

How the results depend on the processing

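Of 324 values (36 members in 9 comparisons), RLE size factors kept direction and side of the threshold for 314, DESeq2 for 310, no count filter for 303, GENCODE 29 pairing alone for 312 and coding transcripts alone for 311. Total counts kept 232 and mitochondrial scaling 226, and the 3 FPKM fits kept 279, 276 and 268. Where a cause is not given by the construction of the alternative, it was not tested.

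With total counts, signs turned with dBET6 in parental cells for POLR2A (-0.37), CCNK (-0.17), SUPT4H1 (-0.31), SUPT6H (-0.19), NELFCD (-0.21) and TCEB1 (-0.11), and in resistant cells for CCNK (-0.24), SUPT4H1 (-0.77), SUPT5H (-0.41), SUPT6H (-0.50), SUPT16H (-0.65), SSRP1 (-0.68), NELFCD (-0.41) and TCEB1 (-0.39). Between dBET6 and JQ1 they turned in parental cells for SUPT4H1 (-0.26), EAF1 (-0.083) and WHSC1 (-0.029), and in resistant cells for CCNK (-0.24), SUPT4H1 (-0.43), SUPT6H (-0.57), SUPT16H (-0.67), TCEB1 (-0.028) and JMJD6 (-0.52). The dBET6 differences between lines turned for SSRP1 (-0.089), TCEB3 (-0.081) and JMJD6 (-0.070).

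With mitochondrial scaling, signs turned with JQ1 in parental cells for SUPT5H (-0.044) and SUPT6H (-0.022), and in resistant cells for CDK13 (-0.28), SUPT5H (-0.10), SUPT6H (-0.31), RTF1 (-0.14) and AFF4 (-0.23). With dBET6 in parental cells they turned for POLR2A (-1.50), CCNK (-1.29), SUPT4H1 (-1.43), SUPT5H (-0.98), SUPT6H (-1.32), NELFCD (-1.33), TCEB1 (-1.22) and TCEB2 (-0.38). In resistant cells they turned for POLR2A (-0.92), CCNK (-1.23), SUPT4H1 (-1.75), SUPT5H (-1.40), SUPT6H (-1.48), SUPT16H (-1.63), SSRP1 (-1.67), NELFCD (-1.39), TCEB1 (-1.37) and TCEB2 (-0.080). Between dBET6 and JQ1 in parental cells they turned for CCNK (-0.80), SUPT4H1 (-1.20), SUPT5H (-0.93), SSRP1 (-0.53), EAF1 (-1.02), TCEB1 (-0.39), TCEB2 (-0.41) and WHSC1 (-0.97), and in resistant cells for CCNK (-0.84), SUPT4H1 (-1.03), SUPT6H (-1.17), SUPT16H (-1.27), SSRP1 (-0.44), NELFCD (-0.078), TCEB1 (-0.62), JMJD6 (-1.11) and WHSC1 (-0.54).

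In all 3 FPKM fits TCEB2 turned with JQ1 in parental cells (-0.18) and SUPT4H1 between dBET6 and JQ1 in parental cells (-0.014). Between dBET6 and JQ1 in resistant cells POLR2B turned to 0.75 with a pseudocount of 1, with or without a filter, and to 0.78 with 0.1, and JMJD6 to -0.19 and -0.20. With GENCODE 29 pairing alone POLR2A turned between dBET6 and JQ1, to 0.98 in parental and 0.36 in resistant cells.

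Counts of members moved by over 1.5 times as follows. With total counts, 1 rose with dBET6 in each line, 5 rose and 18 fell with JQ1 in resistant cells (13.1% and 32.5% of all genes), 4 (parental) and 3 (resistant) were higher with dBET6 than JQ1, 10 were higher in resistant DMSO cells, and the line difference had 2 lower for JQ1 and 2 higher and 21 lower for dBET6. With mitochondrial scaling, 3 rose with JQ1 in parental cells, 1 rose and 21 fell in resistant cells (3.16% and 43.7% of all genes), 0 rose and 35 fell with dBET6 in each line (72.0% and 74.1% of all genes fell), 0 and 1 were higher with dBET6 than JQ1 in the 2 lines and 34 lower in resistant cells, 1 was higher in resistant DMSO cells, and the line difference had 0 in either direction for JQ1 and 1 higher for dBET6. In the FPKM fits (pseudocount 1, pseudocount 0.1, no filter), 3, 2 and 2 members were higher and 7, 7 and 7 lower in resistant DMSO cells, the line difference had 0 in either direction for JQ1, and for dBET6 it had 5, 4 and 3 higher and 3, 3 and 2 lower. JQ1 in resistant cells gave 5 lower with a pseudocount of 0.1 and 4 higher without a filter.

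Leaving out each library in turn gave, for JQ1, 7 to 10 rises and 10 to 14 falls in parental and 6 to 8 and 6 to 9 in resistant cells. For dBET6 it gave 7 to 8 and 22 to 23 in parental and 9 to 10 and 21 to 24 in resistant cells. For dBET6 against JQ1 it gave 8 to 10 and 21 to 22 in parental and 8 to 10 and 21 to 23 in resistant cells. Between the lines in DMSO it gave 4 to 6 and 8 to 12, and for the line differences 1 to 3 and 0 to 2 (JQ1) and 6 to 11 and 8 to 10 (dBET6). A group left with 1 library was assumed to vary like the others.

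The labels number replicates 1 and 2 in every group without saying what a number shares. Deviations of same-numbered libraries correlated between -0.050 and 0.049 over pairs of groups, so the numbers were not taken as pairs. With the replicate number as a block, 3 calls were lost: PAF1 with JQ1 in parental cells (-0.23, adjusted p = 0.0526) and the dBET6 line differences of SSRP1 (0.34, adjusted p = 0.0528) and JMJD6 (0.36, adjusted p = 0.0554). With 2 libraries a group, differences of the size seen for PAF1 depend on single libraries.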
